A study of Mus musculus with 6 samples.

Results

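Trp53, which encodes the transcription factor p53, and 31 genes that p53 is known to activate were followed in mouse embryonic stem (ES) cells lacking the heterochromatin proteins HP1α (gene Cbx5) and HP1β (gene Cbx1). The 32 genes were a given list, chosen with earlier results of these data known and found by gene identifier. All 32 were among the 24467 genes of the count table, and 31 of them were among the 14771 genes with enough reads to test. Fas, a death receptor, was the 1 member left out, with 2 to 14 reads per library.

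RNA was sequenced from 6 libraries, 2 from each of 3 clones: double knockout (DKO) clone 2, DKO clone 1, and 1 control clone that carries floxed Hp1α/β alleles (F/F in its name) and is labelled WT by genotype. All 3 clones grew without further treatment in DMEM with knockout serum replacement and LIF, a cytokine that holds ES cells undifferentiated. The medium also held 2 kinase inhibitors, 3 µM CHIR99021 against GSK3β and 0.8 µM PD184352 against MEK1. Each DKO group and the control is thus a single clone, and effects of genotype and of clonal origin cannot be told apart. Nothing in the labels states that a clone's 2 libraries came from separate cultures, so p-values measure only the spread between these libraries, which may be technical.

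p53 is held low in unstressed cells by the ubiquitin ligase MDM2, itself the product of a p53 target gene, and accumulates when DNA is damaged. It then binds response elements near its target genes and raises transcripts whose products halt the cell cycle, trigger apoptosis, repair DNA and adjust metabolism. Mouse ES cells contain p53 and divide rapidly, with a short G1 phase.

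Libraries held 24628872 to 34641560 counted reads. Levels are given below as CPM, a gene's count relative to its library's total over the tested genes, adjusted by a scaling factor (TMM). Changes are log2 ratios with their standard error (SE), positive where the first-named group is higher. They come from edgeR's quasi-likelihood test, with p-values adjusted over all 14771 tested genes by Benjamini-Hochberg, and a gene is called at an adjusted p under 0.05. Cbx5 averaged 196 CPM in clone 2, 200 CPM in clone 1 and 811 CPM in the control, and Cbx1 averaged 44.7 CPM in clone 2, 46.6 CPM in clone 1 and 225 CPM in the control. All 12 ES cell markers were above 1 CPM in every library, with summed levels of 5302 to 5635 CPM in clone 2, 5312 to 5393 CPM in clone 1 and 5233 to 5513 CPM in the control. Of 17 fibroblast and feeder markers, 7 were above 1 CPM in every library, summing to 870 to 935 CPM in clone 2, 811 to 851 CPM in clone 1 and 824 to 839 CPM in the control. Primitive endoderm markers summed to 420 to 426 CPM in clone 2, 401 to 416 CPM in clone 1 and 435 to 481 CPM in the control, with 7 of 11 above 1 CPM throughout. Markers of 2-cell-like cells summed to 33.2 to 35.0 CPM in clone 2, 44.2 to 49.0 CPM in clone 1 and 112 to 116 CPM in the control, with 5 of the 10 found above 1 CPM throughout. Sparc held most of the primitive endoderm sum (mean 341 CPM in DKO, 356 CPM in the control), and Fn1 most of the fibroblast sum. Of the tested primitive endoderm markers, 2 were called lower, 0 higher and 8 neither in DKO against control, with a median change of -0.48. Of 9 tested fibroblast markers, 2 were called lower and 1 higher, with a median of -0.58. In clone 2 against clone 1, 2 fibroblast markers were lower and 0 higher, and 1 endoderm marker was higher and 0 lower. No marker of these lists was without reads in all libraries, and the part of other cells in the results was not tested. In bulk RNA, fewer cells of a type and less RNA per cell cannot be told apart.

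Promoters were searched for the p53 consensus decamer, the unit that is repeated in a p53 response element and reads alike on both strands. RefSeq start sites (GRCm38.p6) were found for 24 of the 32 members. The decamer lay in the 250 bases before a start in 11 of those 24 genes (45.8%), against 2216 of all 27025 genes with such windows (8.20%). Members called lower in clone 2 than in clone 1 (below) had it in 5 of 11 genes (45.5%), and the other members in 6 of 13 (46.2%). The windows of those 5 genes are shown because they hold the decamer and the gene differed between the clones. Each runs 5′ to 3′ on the gene's strand and ends at the base before the start site, with the decamer in capitals.
Cdkn1a chr17:29090729-29090978 (+ strand): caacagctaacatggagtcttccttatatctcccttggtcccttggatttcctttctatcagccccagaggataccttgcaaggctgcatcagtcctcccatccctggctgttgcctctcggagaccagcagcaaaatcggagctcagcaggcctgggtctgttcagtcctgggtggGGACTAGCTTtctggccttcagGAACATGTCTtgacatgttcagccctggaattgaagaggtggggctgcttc
Mdm2 chr10:117710759-117711008 (- strand): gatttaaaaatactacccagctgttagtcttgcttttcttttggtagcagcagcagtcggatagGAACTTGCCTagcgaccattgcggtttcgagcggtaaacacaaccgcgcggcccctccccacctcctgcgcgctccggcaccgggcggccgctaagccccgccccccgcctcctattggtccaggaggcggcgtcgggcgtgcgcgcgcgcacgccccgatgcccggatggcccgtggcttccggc
Ccng1 chr11:40755287-40755536 (- strand): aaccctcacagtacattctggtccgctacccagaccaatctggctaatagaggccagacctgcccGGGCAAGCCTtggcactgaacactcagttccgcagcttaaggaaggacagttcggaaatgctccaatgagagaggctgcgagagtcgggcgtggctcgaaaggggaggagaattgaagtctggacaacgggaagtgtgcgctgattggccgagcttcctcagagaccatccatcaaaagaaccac
Aen chr7:78895808-78896057 (+ strand): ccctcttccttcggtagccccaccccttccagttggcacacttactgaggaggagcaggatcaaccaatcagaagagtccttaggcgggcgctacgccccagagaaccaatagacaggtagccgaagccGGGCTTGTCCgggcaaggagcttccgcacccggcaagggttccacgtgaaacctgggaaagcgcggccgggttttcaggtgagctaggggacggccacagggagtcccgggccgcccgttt
Ckap2 chr8:22185820-22186069 (- strand): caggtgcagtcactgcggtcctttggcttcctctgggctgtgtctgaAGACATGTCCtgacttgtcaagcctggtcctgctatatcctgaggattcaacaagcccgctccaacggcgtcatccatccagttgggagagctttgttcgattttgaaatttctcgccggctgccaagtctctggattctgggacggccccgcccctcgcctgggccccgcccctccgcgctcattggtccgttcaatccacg
In the Cdkn1a window, the centres of 2 decamers lay 68 and 46 bases before its start. In the windows of Aen, Ccng1, Mdm2 and Ckap2 the centre of a single decamer lay 116, 180, 181 and 198 bases before the start. Cdkn1a and Aen each have a further start. The windows before those starts, chr17:29093519-29093768 for Cdkn1a and chr7:78895677-78895926 for Aen, held 0 decamers. A letter match is a description and not a measured binding site, and binding farther from the start is outside these windows.

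The summed level of the members lay below the control in clone 2 and above it in clone 1. The 32 members together took 2973 and 3011 CPM in the clone 2 libraries, 3757 and 3720 CPM in the clone 1 libraries, and 3346 and 3361 CPM in the control libraries. The ranges of these sums did not overlap between the 3 clones, with clone 2 lowest and clone 1 highest. Such a sum weighs abundant genes most, and not every member followed it. Cdkn1a, Mdm2, Perp and Eda2r were among those whose clone 1 and control libraries overlapped. Plk2, Ei24 and Ckap2 were below the control in both DKO clones, and Pmaip1, Gadd45a, Tigar and Xpc above it in both. Scaled by gene length, the most abundant member was Ccng1, the cyclin G1 gene, at a mean of 131 CPM per kb over the 4 DKO libraries and 133 CPM per kb in the control. Trp53 stood at 46.1 CPM per kb in DKO and 46.6 in the control, Mdm2 at 45.3 in DKO and 51.6 in the control, and Cdkn1a at 11.4 in DKO and 13.2 in the control. The lowest tested member was Rrm2b, a ribonucleotide reductase subunit, at 2.01 CPM per kb in DKO and 1.70 in the control.

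**Figure D1:**
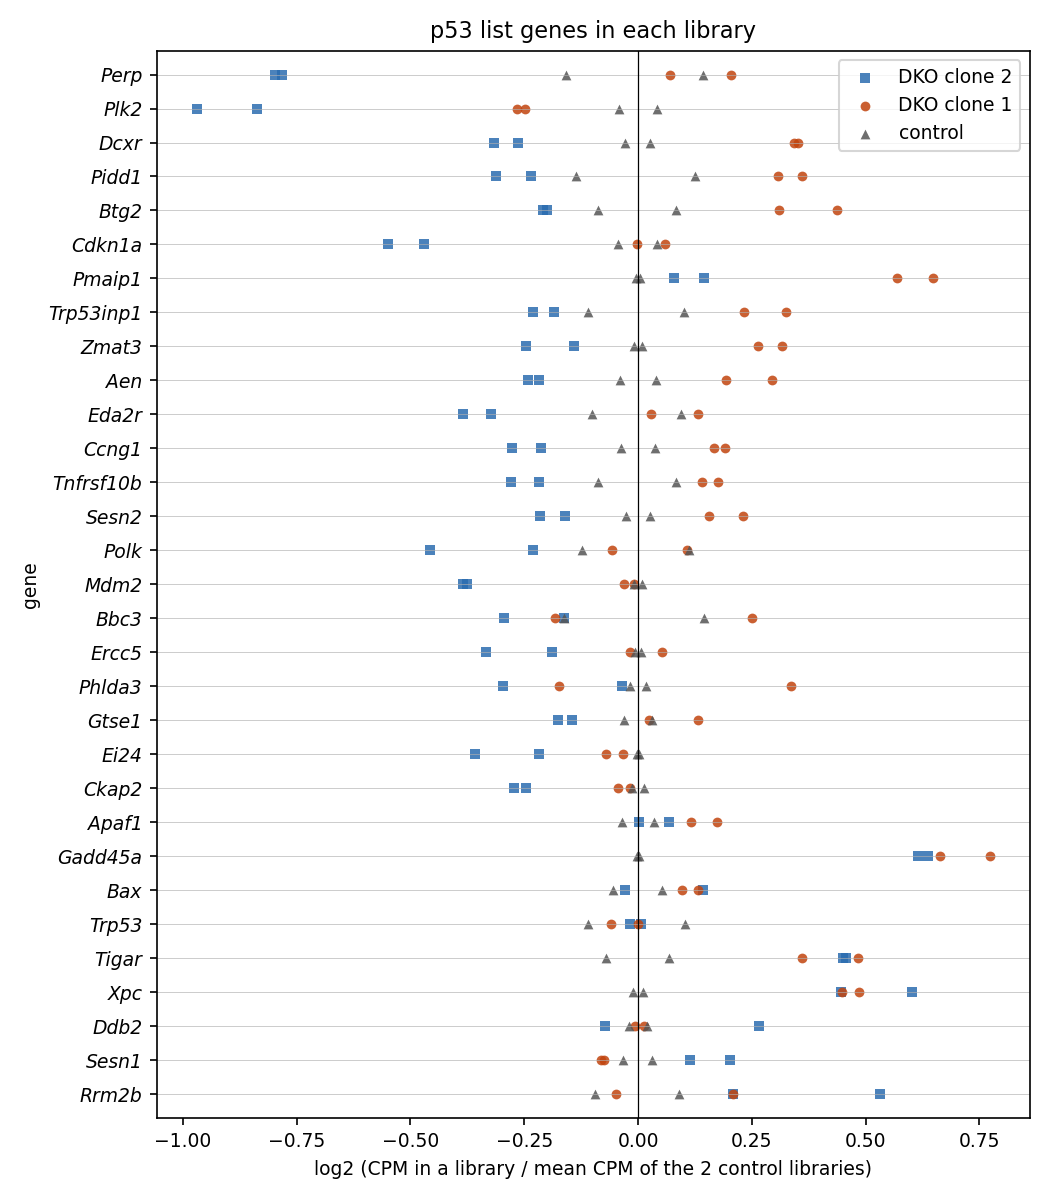
Each point is 1 library, placed by the log2 ratio of its CPM to the mean CPM of the 2 control libraries, for the 31 tested genes in order of their change between the DKO clones. Clone 2 points lie left of clone 1 points for most genes, from Perp at the top, while Trp53 shows all 3 clones together and Gadd45a, Tigar and Xpc show both DKO clones right of the control.

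With both DKO clones pooled against the control, 3 of the 31 tested members were called higher (9.68%, against 5.06% of all tested genes) and 0 lower (against 3.62%). The members' median change was 0.02, against 0.00 over all tested genes. At an unadjusted p under 0.05, 4 members were higher and 1 lower, and DESeq2 and limma-voom also called 0 lower. The share of all tested genes at this unadjusted cut was not counted. Unadjusted counts, here and below, therefore cannot be set against a background. A fit with 3 groups that tested the mean of both clones called 4 lower (against 8.46% of all tested genes). The 3 called members, Gadd45a, Tigar and Xpc, all lie on chromosome 6. Against the control, clone 2 had 10 members lower (32.3%, against 7.08% of all tested genes) and 3 higher (9.68%, against 7.89%). Against the same control libraries, clone 1 had 9 higher (29.0%, against 8.79%) and 1 lower (3.23%, against 6.47%). The 9 include Gadd45a, Tigar and Xpc on chromosome 6 and Zmat3 on chromosome 3. In clone 1 the medians of these chromosomes lay 0.44 and 0.29 above that of all tested genes. Relative to its chromosome's median, none of these genes was called in clone 1. Gadd45a, Tigar and Xpc are also the 3 higher in clone 2. The median change of the members was -0.21 in clone 2 and 0.11 in clone 1, and that of all tested genes was 0.00 and -0.01. These 2 contrasts share the control libraries, so the difference between the clones was tested directly. In clone 2 against clone 1, 16 of 31 members were lower (51.6%, against 3.77% of all tested genes) and 0 were higher (against 2.53%), with a median of -0.36 against 0.00 for all tested genes. At an unadjusted p under 0.05, 20 members were lower and 1 was higher, and DESeq2 and limma-voom also called 0 higher. Of all 32 members, 22 had both clone 2 libraries below both clone 1 libraries, 2 had them above, and 8 overlapped. Over all tested genes 25.7% were below and 25.5% above in this way. Against the control, by the same measure, clone 2 had 20 members below (against 28.4% of all tested genes) and 6 above (28.4%), clone 1 had 4 below (28.0%) and 15 above (27.5%), and all 4 DKO libraries were below for 3 members (16.9%) and above for 4 (16.9%).

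Calls that held under all 14 alternative settings were Cdkn1a, Mdm2, Perp and Plk2 in clone 2 against control, Pmaip1 in clone 1 against control, and Ccng1, Perp, Plk2, Pmaip1, Aen, Trp53inp1 and Btg2 in clone 2 against clone 1. Single libraries moved the counts. The 16 lower in clone 2 than in clone 1 became 10 without clone 2 replicate 1 (against 1.02% of all tested genes) and 9 without clone 2 replicate 2 (against 1.09%). The 10 lower in clone 2 than in control became 5 and 4 without the same libraries (against 3.45% and 3.07%). The 9 higher in clone 1 than in control became 5 of 31 without clone 1 replicate 1 (against 5.22% of all tested genes), clone 1 replicate 2 (7.03%) or control replicate 1 (5.44%), and 6 without control replicate 2 (6.39%).

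**Figure D2:**
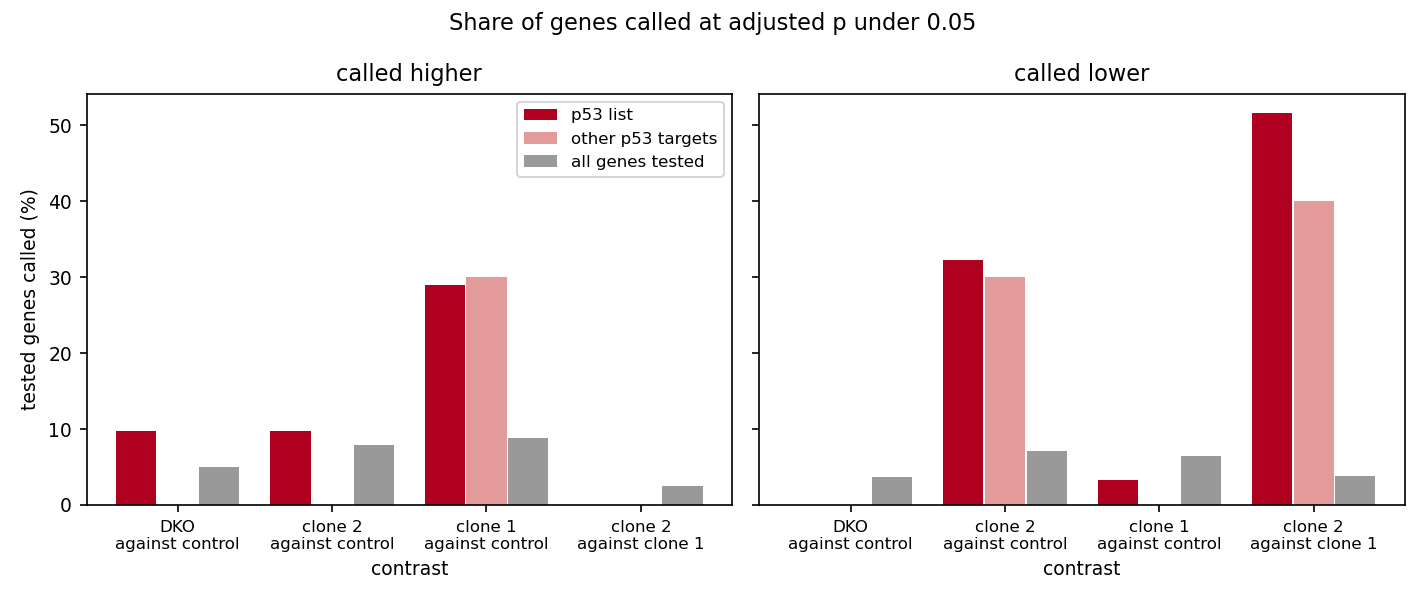
Bars give the percentage of tested genes called higher or lower in each contrast, for the 31 tested p53 list genes, the other p53 targets and all 14771 tested genes. The tallest bar is that of the p53 list called lower in clone 2 against clone 1, at 51.6%, beside 3.77% of all tested genes.

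The regulators themselves came apart: Mdm2 was lower in clone 2, and Trp53 showed no called change. Trp53 had 186 and 189 CPM in clone 2, 189 and 181 CPM in clone 1, and 175 and 203 CPM in the control. All libraries of the DKO clones lay within the control's range. The change was -0.02 in DKO against control (95% interval -0.18 to 0.14) and 0.02 in clone 2 against clone 1 (-0.14 to 0.19). The strand setting of the counting is not given in the sources used here, so reads of Trp53 and of its antisense neighbour Wrap53 may not be separated where they overlap. Neither p53 protein nor its activity was measured. Mdm2 (chromosome 10, 117688875 to 117710758) had 201 and 202 CPM in clone 2, 261 and 257 CPM in clone 1, and 261 and 264 CPM in the control. Clone 2 was below the other clones, and clone 1 overlapped the control. Its change was -0.38 (SE 0.0623, adjusted p = 0.00102) in clone 2 against control, and -0.36 (SE 0.0623, adjusted p = 0.00485) in clone 2 against clone 1. The call against clone 1 ended without clone 2 replicate 1 or replicate 2 (adjusted p up to 0.0620).

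Among 9 members grouped under the cell cycle, not all of which act in arrest, 7 were lower in clone 2 than in clone 1: Cdkn1a, Ccng1, Btg2, Plk2, Trp53inp1, Zmat3 and Ckap2. Cdkn1a (chromosome 17, 29090979 to 29100722) encodes p21, the inhibitor of cyclin-dependent kinases that carries out p53-dependent G1 arrest. It had 25.9 and 24.5 CPM in clone 2, 37.3 and 35.7 CPM in clone 1, and 36.9 and 34.8 CPM in the control. Clone 2 was again alone at the low end, with clone 1 overlapping the control. The change was -0.51 (SE 0.0900, adjusted p = 0.00175) in clone 2 against control, 0.03 (adjusted p = 0.870) in clone 1 against control, and -0.54 (SE 0.0905, adjusted p = 0.00413) in clone 2 against clone 1. The last call ended without clone 2 replicate 2 (adjusted p = 0.0539). Plk2 (chromosome 13, 110395044 to 110400844), a polo-like kinase, had 55.4 and 60.7 CPM in clone 2, 90.2 and 91.4 CPM in clone 1, and 105 and 112 CPM in the control. It was the 1 member called lower than the control in both clones, with changes of -0.90 (adjusted p = 8.57e-06) in clone 2 and -0.26 (adjusted p = 0.0308) in clone 1, and of -0.65 (adjusted p = 0.000378) in clone 2 against clone 1. The call in clone 1 ended with chromosomes centred and without any 1 of the clone 1 or control libraries (adjusted p up to 0.166).

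Ccng1 (cyclin G1) had 385 and 403 CPM in clone 2, 533 and 524 CPM in clone 1, and 455 and 479 CPM in the control. The 3 clones were fully apart, with the control in the middle: the change was -0.24 (adjusted p = 0.0248) in clone 2 against control, and -0.42 (SE 0.0666, adjusted p = 0.00281) in clone 2 against clone 1. The call against control ended with chromosomes centred (adjusted p = 0.0587) and without control replicate 2 or either clone 2 library (adjusted p up to 0.182). The same order, clone 2 lowest and clone 1 highest, held in every library for Btg2, Trp53inp1 and Zmat3. Btg2, an antiproliferative protein, had 31.6 and 31.8 CPM in clone 2, 45.2 and 49.4 CPM in clone 1, and 34.3 and 38.7 CPM in the control. Trp53inp1, a p53-inducible nuclear protein, had 316 and 326 CPM in clone 2, 464 and 435 CPM in clone 1, and 398 and 344 CPM in the control. Zmat3, a zinc finger RNA-binding protein, had 58.9 and 54.7 CPM in clone 2, 80.7 and 77.8 CPM in clone 1, and 65.2 and 64.5 CPM in the control. These 3 genes were called higher in clone 1 than in the control, by 0.38, 0.28 and 0.29, and none of them was called in clone 2 against control. Their changes in clone 2 against clone 1 were -0.58, -0.49 and -0.48 (adjusted p = 0.00309, 0.00297 and 0.00280). Zmat3 lies on chromosome 3, whose 701 tested genes had a median change of 0.08 in clone 2 and 0.29 in clone 1 against control, and of -0.18 in clone 2 against clone 1. With the median of its chromosome taken off, Zmat3 changed by -0.28 between them (adjusted p = 0.0510), and against control by -0.28 in clone 2 (adjusted p = 0.0327) and 0.0042 in clone 1 (adjusted p = 0.982). Its calls in clone 1 against control and between the DKO clones thus ended, and it was called lower in clone 2 against control. The call in clone 1 also ended for Btg2 without control replicate 1 or clone 1 replicate 2 (adjusted p up to 0.0988), for Trp53inp1 without control replicate 2 or clone 1 replicate 1 (adjusted p up to 0.194), and for Zmat3 without any 1 of the clone 1 or control libraries.

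Ckap2, a spindle-associated protein, had 249 and 253 CPM in clone 2, 291 and 296 CPM in clone 1, and 303 and 298 CPM in the control. Its fall was small, -0.26 (adjusted p = 0.0127) in clone 2 against control and -0.23 (adjusted p = 0.0461) against clone 1, and the second call ended under 9 of 14 alternative settings (adjusted p up to 0.239). The first ended without control replicate 1 or either clone 2 library (adjusted p up to 0.109). Gtse1, a microtubule-associated protein that restrains p53 in G2, had 226 and 231 CPM in clone 2 and 260 and 280 CPM in clone 1, and missed the threshold (-0.24, adjusted p = 0.0506). Gadd45a, a DNA damage-inducible gene on chromosome 6, was higher in both DKO clones and is described with its neighbours below.

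Of 8 members grouped under apoptosis, apart from the receptors described below, Perp, Pmaip1, Aen and Pidd1 were lower in clone 2 than in clone 1. Perp (chromosome 10, 18845071 to 18857073), a membrane protein of desmosomes that acts in p53-dependent apoptosis, had 26.1 and 25.8 CPM in clone 2, 47.2 and 51.7 CPM in clone 1, and 40.3 and 49.6 CPM in the control. Its clone 2 libraries were well below all others. The change was -0.93 (SE 0.106, adjusted p = 0.000357) in clone 2 against clone 1, a fold of 0.525, which was the largest fall between the clones among the members. Pmaip1, which encodes the death-promoting protein NOXA, had 230 and 220 CPM in clone 2, 326 and 309 CPM in clone 1, and 208 and 207 CPM in the control. Here clone 1 stood out: it was higher than the control by 0.61 (SE 0.0651, adjusted p = 5.77e-05), while clone 2 against control gave 0.11 (adjusted p = 0.281), and clone 2 against clone 1 gave -0.50 (adjusted p = 0.000851).

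Aen, an apoptosis-enhancing nuclease, had 72.1 and 70.9 CPM in clone 2, 103 and 95.7 CPM in clone 1, and 86.1 and 81.4 CPM in the control. It was called on both sides, lower in clone 2 (-0.23, adjusted p = 0.0498) and higher in clone 1 (0.24, adjusted p = 0.0355), with -0.47 (adjusted p = 0.00233) between them. The call in clone 2 against control ended under 12 of 14 alternative settings, and that in clone 1 under 6, while the call between the clones held under all 14. Pidd1, a scaffold for caspase activation, had 20.7 and 19.6 CPM in clone 2, 31.3 and 30.2 CPM in clone 1, and 22.2 and 26.6 CPM in the control. The 3 clones did not overlap, and the change was -0.61 (SE 0.107, adjusted p = 0.00553) in clone 2 against clone 1. Without clone 2 replicate 2 that call ended (adjusted p = 0.0626), and the call of Pidd1 higher in clone 1 than in control (0.34, adjusted p = 0.0469) ended under 8 of 14 settings.

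Ei24, an endoplasmic reticulum protein, had 155 and 141 CPM in clone 2, 177 and 172 CPM in clone 1, and 181 and 180 CPM in the control, and was called lower in clone 2 against control alone (-0.29, adjusted p = 0.0131), a call that ended without either control library or clone 2 replicate 2 (adjusted p up to 0.183). Against clone 1 its change was -0.23 (adjusted p = 0.0646). Bax, which forms pores in the mitochondrial membrane, ranged from 46.6 to 52.4 CPM in clone 2, 50.8 to 52.0 CPM in clone 1 and 45.7 to 49.3 CPM in the control. Apaf1, the scaffold of the apoptosome, ranged from 68.0 to 71.2 CPM in clone 2, 73.7 to 76.6 CPM in clone 1 and 66.3 to 69.6 CPM in the control. Bbc3, which encodes PUMA, ranged from 11.0 to 12.1 CPM in clone 2, 11.9 to 16.1 CPM in clone 1 and 12.1 to 15.0 CPM in the control. None of Bax, Apaf1 and Bbc3 was called in any contrast. In clone 2 against clone 1 they changed by -0.05, -0.11 and -0.28, with SE of 0.0868, 0.0740 and 0.161.

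Both tested members grouped as receptors were lower in clone 2 than in clone 1. Eda2r, a receptor for ectodysplasin, had 64.8 and 67.7 CPM in clone 2, 92.7 and 86.2 CPM in clone 1, and 90.4 and 78.9 CPM in the control. Clone 2 was below the other clones, which overlapped, and its change was -0.35 (adjusted p = 0.0108) against control and -0.43 (adjusted p = 0.00843) against clone 1. Tnfrsf10b, the receptor for the death ligand TRAIL, had 35.1 and 33.7 CPM in clone 2, 45.0 and 46.1 CPM in clone 1, and 38.4 and 43.2 CPM in the control. Its change was -0.41 (adjusted p = 0.0177) between the DKO clones. That call ended when any 1 of the 4 DKO libraries was left out (adjusted p up to 0.148). It also ended with chromosomes centred (-0.30, adjusted p = 0.0716), since its chromosome 14 had a median of -0.10 over 506 tested genes. Eda2r lost its call between the clones without clone 1 replicate 1 or clone 2 replicate 1 (adjusted p up to 0.0878), and against control without control replicate 1 or either clone 2 library (adjusted p up to 0.103).

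Of 5 survival and metabolic members, Sesn2 and Dcxr were lower in clone 2 than in clone 1, and Tigar was higher in both clones than in the control. Sesn2, a sestrin that restrains mTORC1 under stress, had 89.5 and 86.1 CPM in clone 2, 111 and 117 CPM in clone 1, and 98.2 and 102 CPM in the control. Its libraries were in the order clone 2, control, clone 1 without overlap, and the change between the DKO clones was -0.38 (adjusted p = 0.00649). Its relative Sesn1 lay the other way, at 62.8 and 66.7 CPM in clone 2 and 55.1 and 54.8 CPM in clone 1, with a change of 0.24 that missed the threshold (SE 0.0771, adjusted p = 0.0919). Dcxr, a dicarbonyl and xylulose reductase, had 7.27 and 7.01 CPM in clone 2, 11.1 CPM in both clone 1 libraries, and 8.56 and 8.89 CPM in the control. Its change was -0.64 (SE 0.135, adjusted p = 0.0148) between the DKO clones, and it missed the threshold in clone 2 (-0.29, adjusted p = 0.176) and clone 1 (0.35, adjusted p = 0.0930) against control. The Sesn2 call ended without clone 2 replicate 1 or 2 (adjusted p up to 0.0833), and the Dcxr call without any 1 of the DKO libraries (adjusted p up to 0.114). Phlda3, a repressor of AKT signalling, ranged from 14.7 to 17.6 CPM in clone 2, 16.0 to 22.8 CPM in clone 1 and 17.8 to 18.3 CPM in the control, with no call.

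In the DNA repair members, no difference between the DKO clones was called. Ercc5, the XPG endonuclease of nucleotide excision repair, had 46.8 and 51.7 CPM in clone 2, 58.2 and 61.1 CPM in clone 1, and 59.2 and 58.7 CPM in the control. It was called lower in clone 2 than in control (-0.26, adjusted p = 0.0483), a call that ended under 10 of 14 settings, and its change against clone 1 was -0.28 (adjusted p = 0.0650). Polk, a translesion polymerase, was near the threshold at -0.37 (SE 0.110, adjusted p = 0.0707) in clone 2 against clone 1. With chromosomes centred it passed, at -0.41 (adjusted p = 0.0481). Rrm2b, which supplies nucleotides for repair, had 12.6 and 15.8 CPM in clone 2, 10.6 and 12.6 CPM in clone 1, and 10.2 and 11.6 CPM in the control, and changed by 0.29 (SE 0.149, adjusted p = 0.289) between the DKO clones. Ddb2, a sensor of ultraviolet damage, ranged from 8.06 to 10.2 CPM over all libraries.

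**Figure D3:**
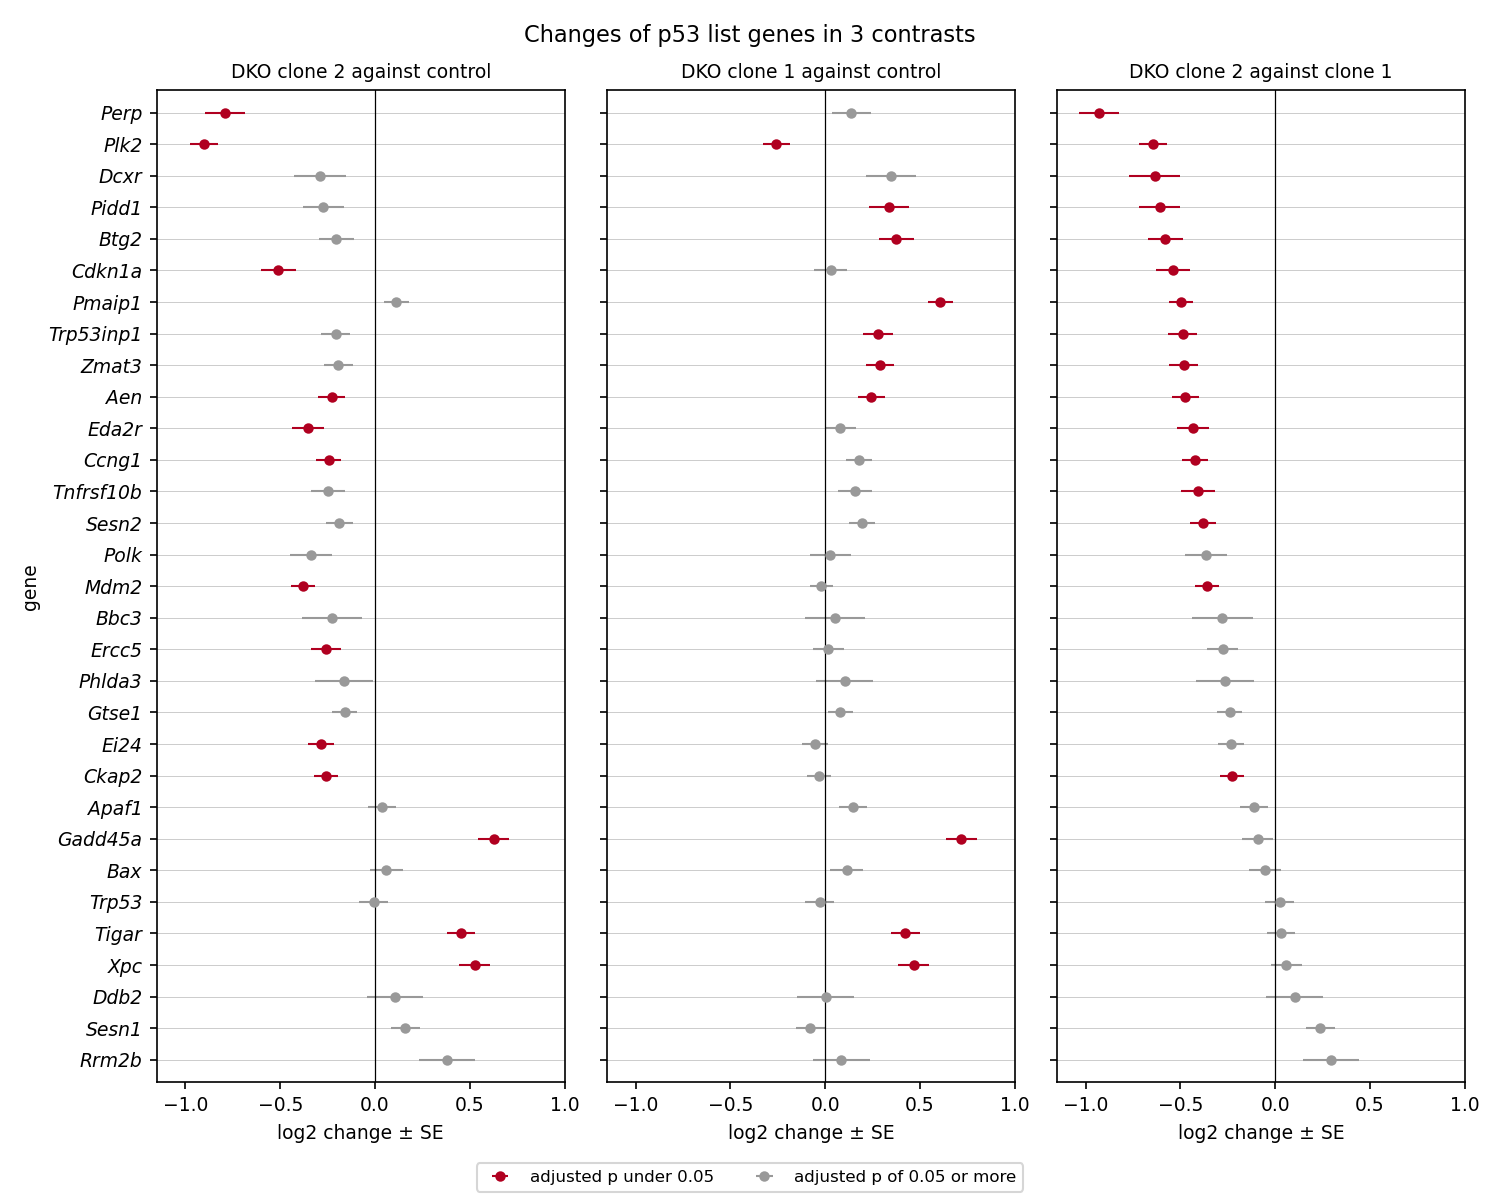
Points are log2 changes and bars their SE for the 31 tested genes in 3 contrasts, with red for an adjusted p under 0.05. In the right panel 16 genes are called, all on the negative side from Perp (-0.93) to Ckap2 (-0.23), while the left panel has 10 called on the negative side (lowest Plk2, -0.90) and the middle panel 9 on the positive side (highest Gadd45a, 0.72).

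The 3 members called higher in both clones lie on chromosome 6, whose genes were higher as a group. Over its 709 tested genes the median change was 0.51 in clone 2 and 0.44 in clone 1 against control. Gadd45a had 47.9 and 47.1 CPM in clone 2, 48.7 and 52.6 CPM in clone 1, and 30.7 and 30.8 CPM in the control, and changed by 0.67 (SE 0.0832, adjusted p = 0.00136) in DKO against control. Tigar, a fructose bisphosphatase that slows glycolysis, had 123 and 124 CPM in clone 2, 126 and 116 CPM in clone 1, and 85.9 and 94.6 CPM in the control. Xpc, which recognises damage in nucleotide excision repair, had 60.2 and 67.0 CPM in clone 2, 61.8 and 60.3 CPM in clone 1, and 44.5 and 43.8 CPM in the control. All DKO libraries were above both control libraries for these genes, with changes of 0.44 for Tigar (adjusted p = 0.00429) and 0.50 for Xpc (adjusted p = 0.00385). Relative to the median of their chromosome, Gadd45a changed by 0.19 (adjusted p = 0.222), Tigar by -0.04 (adjusted p = 0.787) and Xpc by 0.02 (adjusted p = 0.941), so none was called and Tigar changed sign. The count of 3 higher in DKO was 1 without control replicate 1, where Tigar and Xpc lost their calls, and Xpc also lost its call without control replicate 2. Against clone 1, clone 2 changed by -0.09, 0.03 and 0.06 for Gadd45a, Tigar and Xpc, with SE of 0.0822, 0.0744 and 0.0808.

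**Figure D4:**
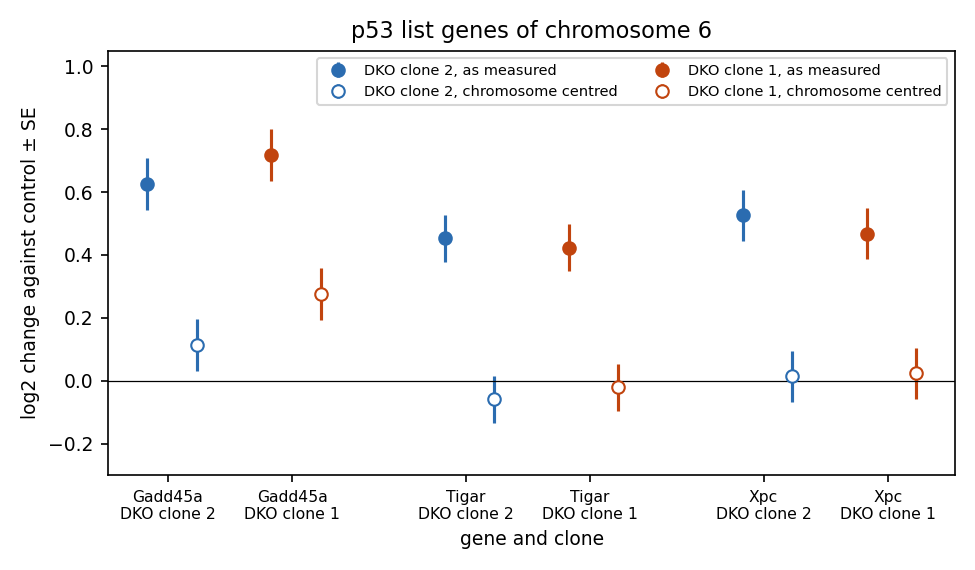
For Gadd45a, Tigar and Xpc, points give the log2 change against control ± SE in each DKO clone, as measured and relative to the median of chromosome 6. Measured changes of 0.42 to 0.72 become -0.06 to 0.27 once the chromosome's median is taken off.

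A second list held 30 p53 targets that are not members. It too was chosen with earlier results of these data known, so its counts are a description and not an independent test. Of the 30, 12 were called lower in clone 2 than in clone 1 (40.0%, against 3.77% of all tested genes) and 0 were higher, with a median of -0.29. At an unadjusted p under 0.05, 22 were lower and 0 higher. Against the control, clone 2 had 9 lower (30.0%, against 7.08% of all tested genes) and 0 higher (against 7.89%). Clone 1 had 9 higher (30.0%, against 8.79%) and 0 lower (against 6.47%). At an unadjusted p under 0.05, clone 2 had 12 lower and 2 higher, and clone 1 had 12 higher and 2 lower. DESeq2 and limma-voom also called 0 wherever edgeR did in these contrasts. With both clones pooled, 0 were called in either direction (3 higher and 3 lower at an unadjusted p under 0.05), and DESeq2 called 1 higher. The pooled fit counts the difference between the clones as spread. A fit with 3 groups that tested the mean of both clones called 5 lower and 2 higher. The share of all tested genes that this fit called lower is given above. The share that it called higher is not given here, so the 2 higher cannot be set against a background. The count of 12 was 3 without clone 2 replicate 1 (against 1.02% of all tested genes), 5 without clone 2 replicate 2 (1.09%), 5 without clone 1 replicate 2 (2.22%) and 7 without clone 1 replicate 1 (1.56%). The 9 lower in clone 2 were 3 without clone 2 replicate 1 (against 3.45%), 3 without clone 2 replicate 2 (3.07%) and 4 without control replicate 2 (3.92%). The 9 higher in clone 1 were 4 without clone 1 replicate 1 (against 5.22%), 5 without control replicate 2 (6.39%) and 6 without clone 1 replicate 2 (7.03%). Examples chosen after their values were seen were Psrc1, a microtubule-associated protein, with 153 and 141 CPM in clone 2, 214 and 231 CPM in clone 1, and 154 and 174 CPM in the control (-0.60 between the DKO clones, adjusted p = 0.000825), and Cd80, a T cell costimulatory ligand, with 5.78 and 5.96 CPM in clone 2, 10.4 and 11.0 CPM in clone 1, and 7.92 and 7.65 CPM in the control (-0.86, adjusted p = 0.00365).

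Genes that regulate p53 or signal DNA damage to it were also counted. Of 31 tested, clone 2 against clone 1 had 1 lower (3.23%, against 3.77% of all tested genes) and 2 higher (6.45%, against 2.53%), with a median of 0.01, and DKO against control had 2 lower (6.45%, against 3.62%) and 0 higher (3 higher at an unadjusted p under 0.05, 2 higher by DESeq2 and 1 by limma-voom). Mdm4, the partner of MDM2 that inhibits p53, had 164 and 176 CPM in clone 2, 180 and 179 CPM in clone 1, and 258 and 222 CPM in the control. It was lower in both clones, with a change of -0.46 (SE 0.0743, adjusted p = 0.00423) in DKO against control, and of -0.08 (SE 0.0781) in clone 2 against clone 1. Trp53bp1, the 53BP1 protein that directs double-strand break repair, had 70.1 and 72.5 CPM in clone 2, 82.0 and 77.2 CPM in clone 1, and 94.5 and 93.4 CPM in the control, a change of -0.32 (adjusted p = 0.0308) in DKO against control.

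Of 20 tested BCL2 family members and caspases, 3 were higher in DKO than in control (15.0%, against 5.06% of all tested genes), and 1 was higher (5.00%, against 2.53%) and 1 lower (5.00%, against 3.77%) in clone 2 than in clone 1. The 3 higher genes, Bid (0.62, adjusted p = 0.00208), Cycs (0.66, adjusted p = 0.00736) and Casp2 (0.44, adjusted p = 0.0323), which encode a death-promoting BCL2 relative, cytochrome c and an initiator caspase, lie on chromosome 6. Relative to that chromosome's median their changes were 0.14, 0.18 and -0.04, and none was called. Among 23 genes of the G1 to S transition, Cdkn1b, which encodes the kinase inhibitor p27, was the 1 call in DKO against control (4.35% higher, against 5.06% of all tested genes). It had 33.4 and 28.0 CPM in clone 2, 38.9 and 37.9 CPM in clone 1, and 22.2 and 24.2 CPM in the control (0.58, adjusted p = 0.0236), and it too lies on chromosome 6, relative to which it changed by 0.10 (adjusted p = 0.738). In clone 2 against clone 1, 1 of the 23 was lower (4.35%, against 3.77% of all tested genes) and 0 higher (against 2.53%; 1 higher at an unadjusted p under 0.05, 0 by DESeq2 and limma-voom).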

How the data were processed

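The authors deposited a table of raw read counts per gene for the 6 libraries, with gene identifiers and gene widths. Per the labels' protocols, libraries were made with the ScriptSeq v2 kit from DNase-treated RNA, and per the submitters' processing notes reads were aligned with STAR 2.5.0a to mm10 (GRCm38). For the counting step, the tool, annotation and strand setting are each "not given in the sources used here". Of 24467 identifiers, 24437 matched a gene name, and unmatched ones held 0.389% to 1.62% of a library's counts.

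Genes were kept by edgeR's filterByExpr (14771), scaled by TMM and tested with edgeR 4.0.16 (R 4.3.3), two-sided, with Benjamini-Hochberg adjustment at 0.05. DKO against control was fitted on genotype, and the clone contrasts in 1 fit with 3 groups. SE is the change divided by the square root of F. The code was tested on simulated counts. CPM divides by a library's total over the tested genes multiplied by its TMM factor, and CPM per kb also by the deposited gene width.

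Members and lists were chosen with earlier results of these data known. Every member is accounted for. Those called in any contrast get every library's value, and of each other list up to 4 genes with the smallest adjusted p among those called in DKO against control are named, except 1 gene that is not reported here. Alternatives were other scalings and filters, DESeq2 1.42.0, limma-voom (limma 3.58.1), a replicate block, chromosome centring, a 3-group mean and leaving out each library.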

Additional observations from a re-analysis of the deposited data

Results flagged for a closer look

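For 16 of the 31 tested p53 genes, the effects of the 2 DKO clones against the shared control differed from each other, by edgeR's quasi-likelihood test of clone 2 against clone 1 with Benjamini-Hochberg adjustment over all tested genes. All 16 log2 changes were negative, that is, lower in clone 2 than in clone 1. Among cell cycle genes the change was -0.65 for Plk2, -0.58 for Btg2, -0.54 for Cdkn1a, -0.49 for Trp53inp1, -0.48 for Zmat3, -0.42 for Ccng1 and -0.23 for Ckap2. Among apoptosis genes it was -0.93 for Perp, -0.61 for Pidd1, -0.50 for Pmaip1 and -0.47 for Aen. It was -0.43 for Eda2r and -0.41 for Tnfrsf10b among the receptors, -0.64 for Dcxr and -0.38 for Sesn2 among metabolic genes, and -0.36 for Mdm2.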

How the results depend on the processing

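Each DKO group is 1 clone with 2 libraries and the control is 1 clone, so no alternative separates genotype from clone. With 1 library left out, a lone library is assumed to vary like the others. The share of all tested genes called also moved with the setting, as given above for single libraries. The counts below come without that share, so they do not show how far the members stood out under each setting. In clone 2 against clone 1, 16 members were lower, 9 to 15 with 1 library left out and 14 to 20 under the other settings, and 12 of the other targets were lower, 3 to 12 with 1 left out. In clone 2 against control, 10 members (4 to 9) and 9 other targets (3 to 9) were lower. In clone 1 against control, 9 members (5 to 7) and 9 other targets (4 to 9) were higher, and 1 member (0 to 1) was lower. In DKO against control, 3 members were higher (1 to 4) and 0 lower (0 to 1), and 0 other targets were higher (0 to 1). With chromosomes centred, members higher were 0 in DKO, 0 in clone 2 and 5 in clone 1 against control, and 0 were lower in clone 1. The change of Tigar then reversed, to -0.043 in DKO, -0.060 in clone 2 and -0.021 in clone 1. Fitting the mean of both clones with 3 groups called 4 members and 5 other targets lower in DKO, and 2 other targets higher. Without a filter 1 member was lower in DKO, and DESeq2 called 1 other target higher. Counts summed per clone, an alternative chosen after seeing the data, left 0 members higher, with fewer samples in the fit. The cause of these differences was otherwise not tested.

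Replicate numbers did not pair the samples: the deviations of same-numbered libraries correlated at -0.08 for clone 2 with control, 0.03 for clone 1 with control and 0.03 between the DKO clones. With the replicate block, 15 members were lower in clone 2 than in clone 1, 8 lower in clone 2 than in control, 8 higher in clone 1 than in control and 3 higher in DKO than in control. The shares of all tested genes called with the block are not given here.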
